A study of Mus musculus with 3 samples.

Results

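The genes that encode the proteins of the cytosolic ribosome were followed over 3 levels of substrate stiffness. The rule that chose them reads only the symbol, though it was set with earlier results of these data known: it takes every row whose symbol is Rpl or Rps, a number and an optional letter or paralog ending, together with Rplp0, Rplp1, Rplp2 and Rpsa, and without the pseudogene loci marked -ps. That gave 90 of 56833 genes, of which 54 belong to the large subunit and 36 to the small subunit. Of the 90, 77 are canonical ribosomal protein genes and 13 are paralogs or copies. Averaged over the libraries, 83 of the 90 had 50 or more normalized counts, as did 11873 genes in all, which are the tested genes below. Here "tested" means only that the gene entered the counts and medians, since no significance test was possible.

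The ribosome is built from rRNA and, for most of its proteins, equal numbers of each, so its protein genes are usually expressed in near-fixed proportion to each other. Their mRNAs are short and abundant, and typically begin with an uninterrupted run of C and T bases, the 5′ terminal oligopyrimidine tract, through which mTORC1 and the RNA-binding protein LARP1 control their translation and stability. Ribosome production is a large part of the cost of cell growth, and it usually goes with growth and division of cultured connective tissue cells.

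RNA came from mouse ankle synovium cells of the genotype Efhd1CreER; Ai9, in which a Cre recombinase driven from Efhd1 switches on the red reporter tdTomato. Cells positive for tdTomato were sorted, and are labelled telocytes, an interstitial cell type with long thin processes. Culture lasted 24 h on collagen-coated plates. The stiffness was 0.2 kPa in the soft group, 8 kPa in the intermediate group and 64 kPa in the stiff group, and all groups share the genotype, the sort, the coating and the medium. Each level has 1 library, so stiffness and differences between cultures cannot be told apart, and the labels do not say how many animals were pooled.

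The libraries held 25487064 reads (soft), 28081600 (intermediate) and 26474862 (stiff). Of the genes that define the label, Pdgfra, a receptor of mesenchymal cells, was at 5884 on soft, 6298 on intermediate and 5118 on stiff, in normalized counts, the order used throughout. Cd34 was at 234.8, 242 and 318, and Kit, another telocyte marker, at 42.0, 38.7 and 45.1. Efhd1, whose promoter drives the Cre, was at 10.3, 4.71 and 3.08, while the tdTomato reporter was at 818, 1193 and 2668. Of 6 genes checked for the label, Pdgfra, Pdgfrb, Cd34 and Foxl1 averaged 50 or more and Kit and Efhd1 did not, with Efhd1 at 3 reads in the stiff library. Macrophage markers were present in every library: their summed level over 14 genes was 30726, 38028 and 66477, and all 13 tested genes among them were higher in the stiff than the soft library. Erythroid markers had no reads, and the 7 endothelial markers summed to 57.4, 79.2 and 86.1.

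In the 3 libraries the ribosomal protein genes took 6.92% of the soft reads, 6.52% of the intermediate and 5.98% of the stiff. The exact 95% Clopper-Pearson intervals were 6.91% to 6.93%, 6.51% to 6.52% and 5.97% to 5.99%, so they did not overlap, and they cover counting error only. Large subunit genes took 3.85%, 3.64% and 3.35% of the reads and small subunit genes 3.07%, 2.88% and 2.64%. Both subunits stood highest on the soft and lowest on the stiff substrate. Without mitochondrially encoded genes in the denominator the share of all 90 genes was 7.01%, 6.59% and 6.05%.

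The difference was small in each gene and shared by most of them. From soft to stiff, the median log2 ratio of the 83 genes was -0.16, a value 10.8% lower, beside 0.0049 for all tested genes. A ratio below 0 was found for 78 of the 83, against 48.9% of all tested genes. Shorter genes in general were lower on stiff. With the trend of the ratio with transcript length and GC content over other genes subtracted, the median was -0.04, with 56 of 83 below 0, beside 50.2% of all genes, and with coding length and coding GC content it was -0.08, with 65 of 80 below 0, beside 50.3%. The summed normalized counts were 10.2% lower in the stiff library, with a log2 ratio of -0.15 (counting interval -0.16 to -0.15). The counting interval of the single gene lay below 0 for 72 members, above 0 for 2 and across 0 for 9. Over all tested genes it lay below 0 for 25.9% and above 0 for 31.3%.

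A threshold of fold size gives another picture. At a log2 ratio of -0.1 or less stood 61 of the 83 members in stiff against soft, against 33.5% of all tested genes. Only 10 of the 83 members had a log2 ratio of -0.25 or less, while 15.2% of all tested genes did, and no member was at 0.25 or more, where 23.7% of tested genes were. The members thus showed no excess past the larger threshold in this comparison. With scaling to total reads the count at -0.25 or less was 30, beside 20.7% of tested genes. With the transcript trend subtracted it was 0, beside 15.0%, and with the coding trend 1, beside 14.6%, so the count depends on the processing. Their ratios lay close together. The interquartile range of their log2 ratios was 0.12, against 0.39 over all tested genes. Among deep genes, averaging 5000 or more normalized counts, where counting error is small, it was 0.10 for 75 members and 0.34 for 934 other genes.

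**Figure D1:**
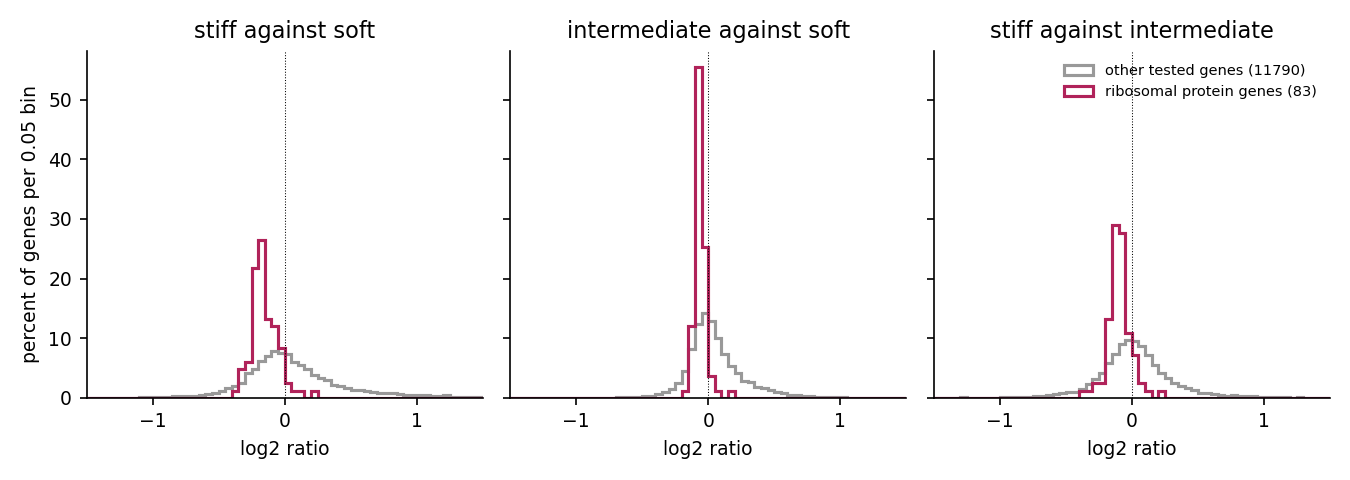
Distribution of log2 ratios (x axis, pseudocount 1) for the 83 ribosomal protein genes and the other tested genes, as percent of genes per bin of 0.05 (y axis), in each comparison of 2 libraries; ratios beyond 1.5 in size are not drawn. The ribosomal protein genes form a narrow peak below 0, with medians of -0.16, -0.07 and -0.10, inside the broader distribution of the other genes.

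The lowest and highest in stiff against soft of the members averaging 100 or more normalized counts are given first, with the sequence around their start sites where RefSeq has one. Rpl22l1, the paralog of the large subunit protein Rpl22, lies at chr3:28859585-28861573 (GRCm39, plus strand, 4 exons). It was at 4895 normalized counts on soft, 4778 on intermediate and 3804 on stiff, a log2 ratio of -0.36 (counting interval -0.43 to -0.30) for stiff against soft. Nearly all of that difference lay between the intermediate and the stiff library, and with the transcript trend subtracted the ratio was -0.11.

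Rps21, a small subunit protein that contacts Rpsa, lies at chr2:179899114-179900249 (plus strand, 6 exons). It was at 13008, 11491 and 10288 normalized counts, with a stiff to soft log2 ratio of -0.34 (-0.38 to -0.30). Intermediate against soft it stood at -0.18, lowest of the members that averaged 100 or more. Rps14, which lies near the mRNA exit side of the small subunit, was at 22737, 20906 and 18421, a log2 ratio of -0.30 (-0.33 to -0.28). Both were lower at each step of stiffness.

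Rpl41, which encodes one of the shortest known eukaryotic proteins, lies at chr10:128383979-128387628 (minus strand). It was at 24272, 23421 and 19319 normalized counts, with a log2 ratio of -0.33 (-0.36 to -0.30). Rpl39, a short protein at the exit of the nascent chain tunnel, lies at chrX:36345092-36349130 (minus strand) and was at 16902, 16023 and 13813, with a log2 ratio of -0.29 (-0.32 to -0.26). In both the second step was the larger, at -0.28 and -0.21, after -0.05 and -0.08 in the first.

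Rpl29 was the exception among the large subunit genes. It encodes a surface protein of the large subunit and lies at chr9:106306586-106311297 (plus strand, 4 exons). It was at 7227 normalized counts on soft, 7741 on intermediate and 8589 on stiff, a log2 ratio of 0.25 (0.20 to 0.30), just under the threshold, and it was higher at both steps. Rps26, a protein at the mRNA exit that contacts the sequence upstream of the start codon, lies at chr10:128460395-128462636 (minus strand) and was at 16847, 16929 and 17366, a log2 ratio of 0.04 (0.01 to 0.07). Rpl10, a late-joining protein near the catalytic centre, was at 27359, 26508 and 27538, a log2 ratio of 0.01 (-0.02 to 0.03). With scaling to total reads the ratios of Rps26 and Rpl10 turned to -0.01 and -0.05, while that of Rpl29 stayed above 0 at 0.19.

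The windows below run from 85 bases before to 15 bases after the RefSeq start of each gene (GRCm38.p6, 5′ to 3′ on the gene's strand), and are shown because they put the lowest and the highest members beside each other. Capitals mark the longest stretch of at least 7 C or T bases within 15 bases of the start, cut at that limit where the run goes on, and any CCGGAAG on either strand, the core of an ETS family binding motif. Of the members averaging 100 or more, the first 3 genes are among the 5 lowest in stiff against soft, and the last 3 among the 5 highest.
Rpl22l1, chr3:28805423-28805522: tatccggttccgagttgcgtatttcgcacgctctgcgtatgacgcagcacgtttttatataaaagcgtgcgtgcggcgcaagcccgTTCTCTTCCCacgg
Rpl41, chr10:128549154-128549253: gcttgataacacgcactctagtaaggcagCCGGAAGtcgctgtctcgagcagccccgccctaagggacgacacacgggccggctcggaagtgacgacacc
Rpl39, chrX:37085208-37085307: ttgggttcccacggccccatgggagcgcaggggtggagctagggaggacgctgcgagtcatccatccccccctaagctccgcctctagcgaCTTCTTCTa
Rps26, chr10:128626492-128626591: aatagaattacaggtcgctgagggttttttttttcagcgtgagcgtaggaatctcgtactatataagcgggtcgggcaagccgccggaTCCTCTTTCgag
Rpl10, chrX:74270731-74270830: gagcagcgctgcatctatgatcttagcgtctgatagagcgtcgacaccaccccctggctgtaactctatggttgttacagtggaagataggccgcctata
Rpl4, chr9:64173302-64173401: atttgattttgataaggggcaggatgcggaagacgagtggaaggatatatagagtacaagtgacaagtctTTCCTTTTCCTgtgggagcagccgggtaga

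A pyrimidine run of at least 7 bases was present in 2 of these 3 low members, with 10 bases in Rpl22l1 and 8 in Rpl39, and in 2 of the 3 high members, with 9 bases in Rps26 and 11 in Rpl4, where the run goes on upstream of the 15 bases searched. The annotated starts of Rpl41 and Rpl10 carried no such run in this window. Rpl6, which ranked between Rpl10 and Rpl4 in stiff against soft, is not printed. Its longest run was 6 bases, so the count among the high members depends on which are shown. Of the 65 members in the RefSeq table, 53.8% had a run, against 21.9% of 9326 tested genes in it. CCGGAAG, searched on both strands over 300 bases, was in 40.0% of members and 20.7% of tested genes, and AAGATGG, the core of the YY1 motif, in 15.4% and 8.51%. The GC box GGGCGG was in 61.5% and 70.5%, and TATAAA in 12.3% and 8.77%. The stiff to soft median was -0.20 over 33 members with a run, of which 32 were below 0, and -0.15 over 26 members without one, of which 25 were below 0. With and without CCGGAAG it was -0.17 (25 members) and -0.16 (34 members). With and without TATAAA the median was -0.22 (7 members) and -0.16 (52 members). For AAGATGG it was -0.18 (10 members) and -0.16 (49 members), and for GGGCGG -0.15 (37 members) and -0.17 (22 members). As nearly all members were below 0, the proportion below 0 could not tell members with and without these letters apart.

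**Figure D2:**
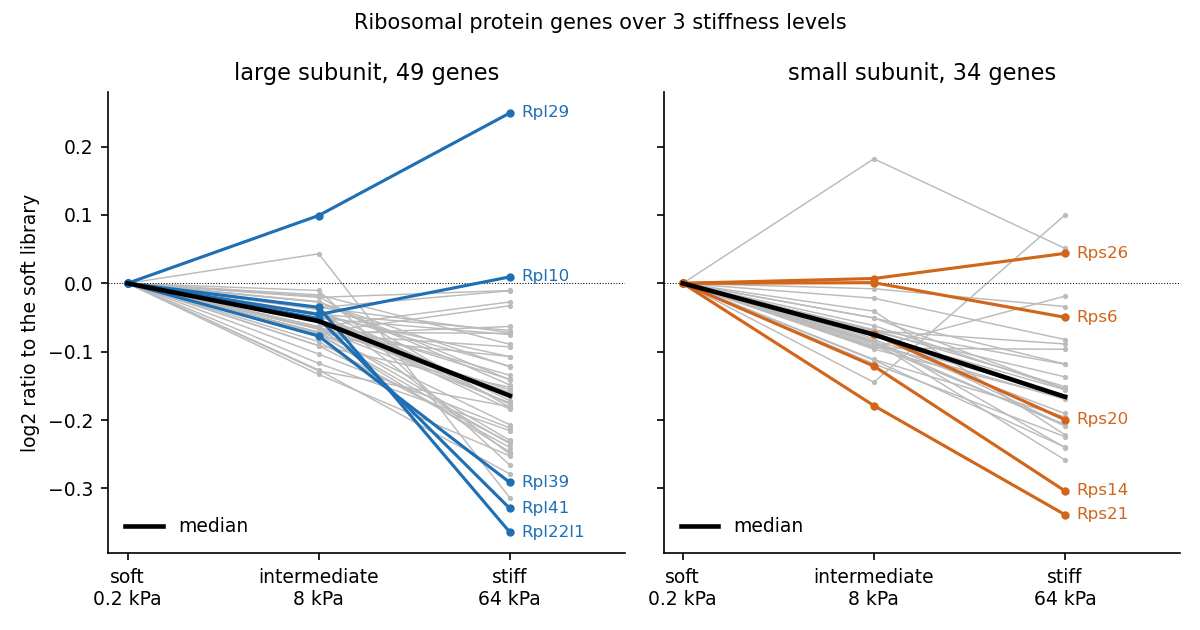
Log2 ratio of each ribosomal protein gene to its own value in the soft library (y axis) at 0.2, 8 and 64 kPa (x axis), for the 49 large and 34 small subunit genes that were tested; grey lines are single genes, coloured lines are named genes and the black line is the median. Most lines run below 0 and lower on stiff than on intermediate, while Rpl29 runs upward to 0.25.

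The first step, from soft to intermediate, was the smaller one. The median of the 83 members was -0.07 (4.60% lower), beside 0.01 for all tested genes, and 78 members were below 0 where 46.5% of tested genes were. With the transcript length and GC trend subtracted the median was -0.0092, and 47 members were below 0, beside 50.8% of all genes. At -0.1 or less stood 11 members, against 19.6% of tested genes. No member reached -0.25, where 4.35% of tested genes were, nor 0.25, where 14.0% were. Rps21 (-0.18), Rpl13a (-0.13), Rplp1 (-0.13), Rpl36a (-0.13) and Rps14 (-0.12) were lowest among members averaging 100 or more. Rpl29 (0.10), Rps26 (0.01), Rps6 (0.00) and Rps4x (-0.01) were highest, and of these 4 only Rpl29 had a counting interval that left out 0.

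In the second step, from intermediate to stiff, the median was -0.10 (6.59% lower), beside 0.01 for all tested genes, and 73 members were below 0 where 48.9% of tested genes were. With the transcript trend subtracted the median was -0.05, and 56 members were below 0, beside 49.7% of all genes. At -0.1 or less stood 41 members, against 30.1% of tested genes. At -0.25 or less stood 4, against 12.5% of tested genes, and at 0.25 or more none, against 16.2%. Rpl22l1 (-0.33), Rpl41 (-0.28), Rpl39 (-0.21), Rpl10a (-0.21) and Rps14 (-0.18) were lowest among members averaging 100 or more. Among the same members Rpl29 (0.15), the paralog Rps4l (0.07), Rpl10 (0.05), Rpl21 (0.04) and Rps26 (0.04) were highest. The second step was the larger in size for 57 of the 83 members.

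Both steps went down, by any amount, in 70 of 83 members, against 25.6% of tested genes. With the trend in transcript length and GC content subtracted it was 33, beside 26.0% of all genes. The steps share the intermediate library. At least 0.1 down in each step was seen in 7 members, Rpl13a, Rpl35, Rpl36a, Rps12, Rps14, Rps21 and Rps7, a share near the 6.33% of all tested genes. With scaling to total reads the count was 18, beside 9.34% of tested genes, and with the transcript trend subtracted it was 0, beside 6.62%. No member went up by 0.1 in each, where 14.6% of tested genes did. Both steps went up in Rpl29 and Rps26, where 30.2% of all tested genes did so. The intermediate library was lowest in 8 members: Rpl4, Rpl6, Rpl7a, Rpl10, Rpl18, Rpl21 and the paralogs Rps3a3 and Rps4l. In Rpl6, Rpl7a, Rps3a3 and Rps4l the counting interval of the second step included 0. In these except Rpl7a that of the first step did too. The intermediate library was highest in Rps6, Rpl39l and Rps3a2, and the counting interval of that first step included 0 in each. The share of all tested genes with these patterns was not counted.

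**Figure D3:**
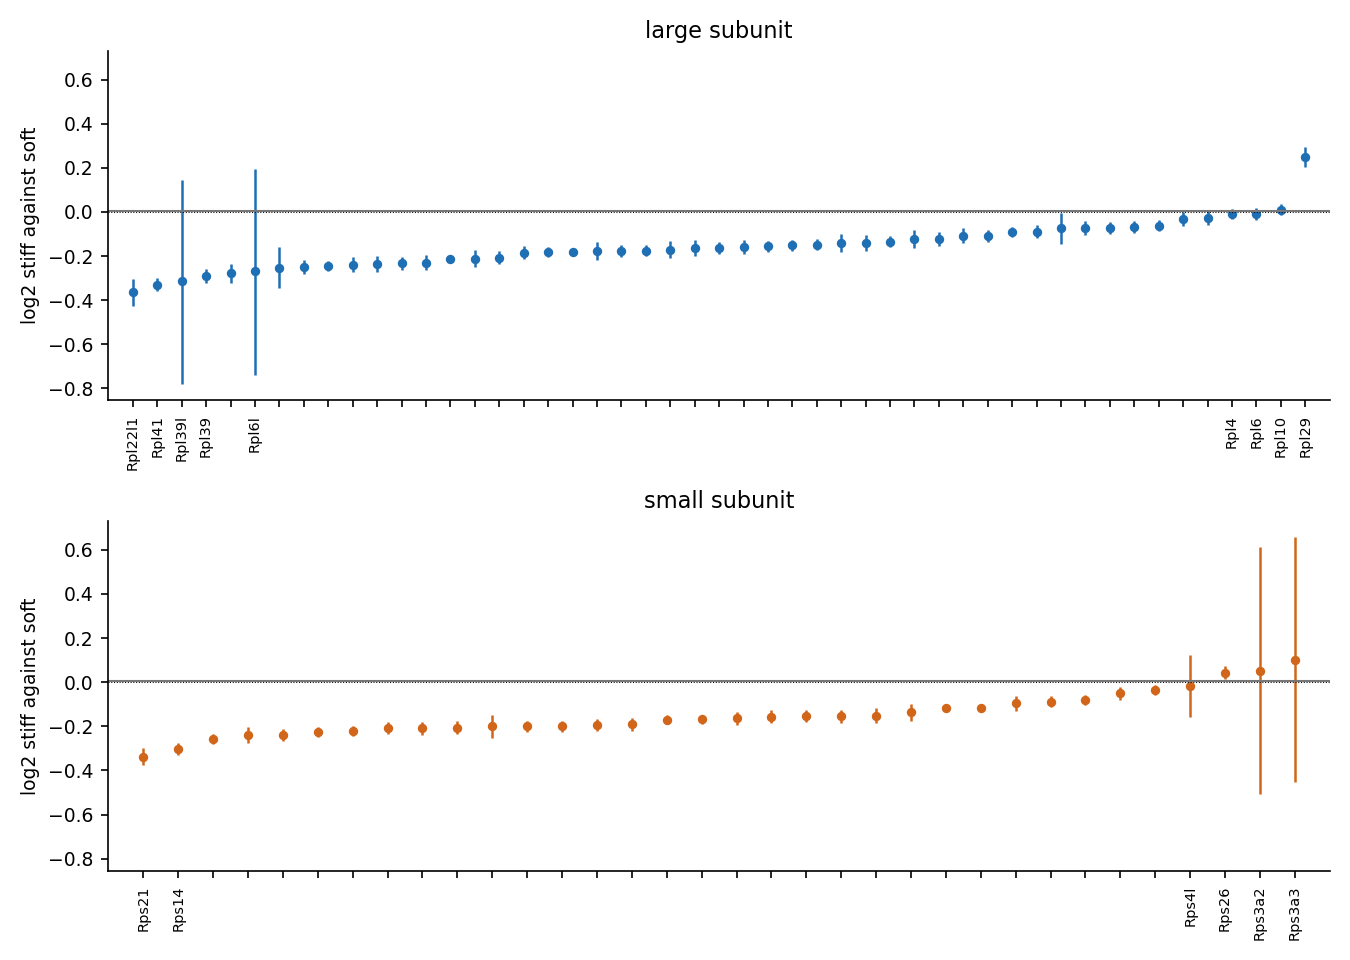
Log2 ratio of stiff against soft (y axis) for each tested large (upper) and small (lower) subunit gene, in order of its value, with names for the lowest, the highest and the low-count genes; bars are exact 95% counting intervals, the grey line is the median of all tested genes and the dotted line is 0. Rpl29 and Rps26 are the 2 genes whose interval lies above 0, and the wide bars belong to low-count copies such as Rpl39l, Rpl6l, Rps3a2 and Rps3a3.

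The stiff to soft median was -0.16 over the large subunit genes (49 genes, 47 below 0) and -0.17 over the small subunit genes (34 genes, 31 below 0). The difference between the subunit medians was 0.0016. From soft to intermediate the medians were -0.06 and -0.08, and from intermediate to stiff -0.10 and -0.09.

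The P stalk of the large subunit, which recruits the elongation factors, is made by Rplp0, Rplp1 and Rplp2. Rplp0, its base, was at 92623, 85397 and 79772 normalized counts, with a stiff to soft log2 ratio of -0.22 (-0.23 to -0.20). Rplp1 was at 51367, 47004 and 45324, a ratio of -0.18. Its partner Rplp2 was at 22315, 21779 and 21228, a ratio of -0.07 (-0.10 to -0.04), whose interval did not overlap those of the other 2. All 3 stalk genes were lower at each step, by unequal amounts, as were 70 of the 83 tested members and 25.6% of tested genes.

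Rpl5 and Rpl11 bind 5S rRNA, and outside the ribosome they bind and inhibit MDM2. Rpl5 was at 24109, 23204 and 21965 normalized counts and Rpl11 at 18928, 18100 and 16948, with stiff to soft log2 ratios of -0.13 and -0.16. Their counting intervals, -0.16 to -0.11 and -0.19 to -0.13, overlapped. Mdm2 itself stood at 0.17.

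All 9 genes around the polypeptide exit tunnel, through which the new protein chain leaves, were below 0 in stiff against soft. So were 78 of the 83 tested members and 48.9% of all tested genes. The median of the 9 was -0.18, beside -0.16 for the members. The 9 ran from Rpl39 (-0.29) over Rpl31 (-0.23), Rpl35 (-0.21), Rpl26 (-0.21), Rpl17 (-0.18), Rpl22 (-0.17), Rpl19 (-0.11) and Rpl23a (-0.07) to Rpl4 (-0.01). Rpl4, whose long loop lines the tunnel, was at 33983, 33156 and 33727 normalized counts. Its interval of -0.03 to 0.01 included 0.

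Near the peptidyl transferase centre, Rpl3 was at 31292, 30881 and 27594 normalized counts, a log2 ratio of -0.18, and Rpl8 at 32357, 30734 and 30338, a ratio of -0.09. Rpl3 differed mainly in the second step (-0.16) and Rpl8 mainly in the first (-0.07). Rpl10, whose soft and stiff values did not differ beyond counting error, was lower on intermediate, with -0.05 in the first step and 0.05 in the second.

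In the small subunit, 7 of 8 genes of the head and the mRNA channel were below 0 in stiff against soft. Below 0 were also 78 of the 83 tested members and 48.9% of all tested genes. The median of the 8 was -0.13. Rps20 (-0.20), Rps3 (-0.17), which lines the mRNA entry, and Rps15 (-0.15) were lowest, followed by Rps28 (-0.14), Rps2 (-0.12), Rps29 (-0.10) and Rps3a1 (-0.08). Rps29 was at 14039, 13148 and 13131 normalized counts, so nearly all of its difference lay in the first step. The exception above 0 was Rps26. Rpsa, which is also known as a laminin receptor precursor, was at 61552, 59427 and 56722, a ratio of -0.12.

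Rps6, the substrate of the S6 kinases downstream of mTORC1, was at 18784, 18797 and 18148 normalized counts. Its stiff to soft log2 ratio of -0.05 (-0.08 to -0.02) was above that of most members, and soft and intermediate did not differ beyond counting error. Rps27a, made as a fusion to ubiquitin and cut from it, was at 22983, 21639 and 19891, a ratio of -0.21 (-0.24 to -0.18).

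Between genes, levels are compared per kilobase of coding sequence, as the mean of the 3 libraries. Over the 75 canonical members tested, the median was 43683 normalized counts per coding kilobase, and the upper quartile was 1.71-fold the lower. Rpl41 (297836), Rplp1 (140054) and Rpl39 (101825) stood highest; the first and last have very short coding sequences, of 75 and 153 nucleotides, so that their untranslated ends weigh most in this measure. Rps4l (1058), Rpl13a (3091) and Rpl7l1 (4821) were lowest among members averaging 100 or more.

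Rpl13a was the single canonical gene among those, at 2052, 1871 and 1723 normalized counts, and 97.5% of its coding bases lie inside exons of another annotated gene on the same strand, Gm45713. The canonical genes Rps10 (18.5, 28.3 and 21.5 normalized counts) and Rpl24 (26.7, 42.4 and 23.6) fell under the minimum mean. Of their coding bases 92.1% and 83.4% lie inside the overlapping genes Gm49804 and Gm28037. The paralog Rpl36al (42.03, 49.96 and 41.02) has 95.3% inside Gm49383. Gm45713, Gm49804 and Gm28037 had no reads in any library, and Gm49383 had none in soft and intermediate. How the counting treated reads matching 2 genes is not given in the sources used here, so the low values of these genes may not be their expression, and the part of the overlap was not tested. In the GENCODE vM39 annotation, no other member with coding sequence had at least 80% of it in such an overlap.

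The other members under the minimum were the testis-type paralog Rpl10l with no reads, Rpl3l, known from heart and skeletal muscle, with 2.05 normalized counts in the soft library and 0 in the others, and the copies Rps12l1 and Rpl32l, at no more than 8.20 and 16.4. Zero reads allow up to 3.08 normalized counts on soft, 2.83 on intermediate and 3.08 on stiff.

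Of the paralogs, Rpl22l1 made up 28.7%, 28.8% and 26.1% of the reads of the pair with Rpl22 in the soft, intermediate and stiff libraries. The stiff interval of 25.4% to 26.8% lay below the others, 28.04% to 29.4% and 28.1% to 29.4%. Rpl22 itself was at 12146, 11828 and 10785 normalized counts, a ratio of -0.17, so both genes were lower on stiff and the paralog more so. Rps27l, a p53-responsive paralog of Rps27, held 31.1%, 31.3% and 31.7% of its pair, with overlapping intervals. Rpl7l1 held 10.5%, 10.6% and 11.03% of the pair with Rpl7, also with overlapping intervals. Rps4l was at 2.61%, 2.47% and 2.64% beside the X-linked Rps4x, and Rpl39l at 0.549%, 0.597% and 0.539% beside Rpl39.

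Ribosomal protein genes have many processed pseudogenes, and reads from shared stretches can be split or lost. Of the 75-base windows of a member's coding sequence, a median of 83.1% also occur in another annotated transcript. In the 18 tested members with under 50% of windows shared the stiff to soft median was -0.17, and 18 of 18 were below 0, for instance Rps3 with no shared window, at -0.17. In the 61 with at least 50% shared it was -0.16, and 58 were below 0, where Rpl13a is left out for its overlap with another gene. The 322 loci marked -ps took 0.0180%, 0.0160% and 0.0149% of the reads. The part of shared stretches in the members' values was not tested.

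Length moves with the result. The members' median coding length was 453 nucleotides, against 1377 over tested genes, and longer genes had higher ratios. For stiff against soft, Spearman's rho with coding length was 0.32 across 11311 tested genes and 0.47 across 80 members; genes share libraries and are not independent replicates. Among other genes with coding sequences up to 500 nucleotides, the median was -0.10, and 630 of 931 were below 0. Compared within classes of coding length, the members' median was below that of other genes in all 6 classes: -0.29 against -0.15 up to 250 nucleotides, -0.18 against -0.10 from 250 to 350, -0.20 against -0.10 from 350 to 450, -0.16 against -0.08 from 450 to 600, -0.09 against -0.05 from 600 to 900, and -0.18 against -0.02 from 900 to 1300, the last with 3 members.

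**Figure D4:**
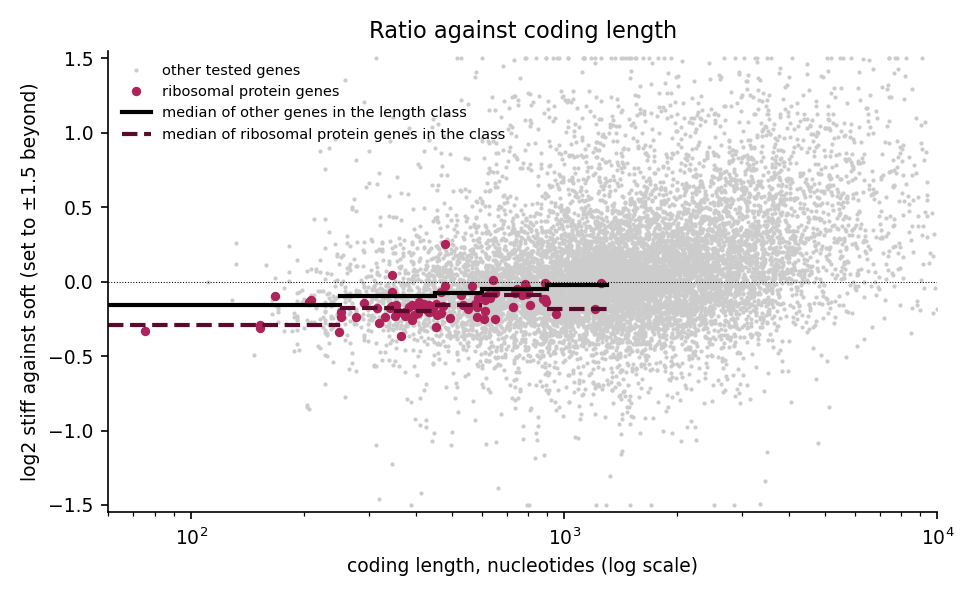
Log2 ratio of stiff against soft (y axis, set to 1.5 in size beyond that) against coding length in nucleotides (x axis, log scale) for tested genes; solid bars are medians of other genes and dashed bars medians of ribosomal protein genes in 6 length classes. Short genes of both kinds lie below 0, and in each class the dashed bar is below the solid one.

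When a local linear trend of the ratio with coding length and coding GC content, fitted on the other tested genes, was subtracted, the stiff to soft median of the 80 members with coding sequence was -0.08 in place of -0.16, and 65 of 80 stayed below 0 where 50.3% of all genes did. With the length and GC content of the canonical transcript in the fit it was -0.04, with 56 of 83 below 0. From soft to intermediate these fits gave -0.02 and -0.01. The trend itself, read at the members, had medians of -0.08 and -0.13 for stiff against soft, so other genes of like length and GC content were also lower on stiff, by less than the members. After the coding trend Rps14 (-0.27), Rpl41 (-0.22) and Rps21 (-0.21) were lowest, and Rpl29 (0.29) highest.

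Of 31 core translation factors 17 were above 0 and 14 below in stiff against soft, a share near the 48.9% of all tested genes below 0, with a median of 0.02, which turned to -0.03 with scaling to total reads. Those at -0.25 or less were 3, beside 15.2% of tested genes, and those at 0.25 or more 4, beside 23.7%. Eef1a1, which delivers aminoacyl-tRNA, was at 280427, 267363 and 243341 normalized counts, a ratio of -0.20. Eef1b2, its exchange factor (-0.30), and Tpt1 (-0.30), both from terminal oligopyrimidine mRNAs, were also lower. Other genes known for such mRNAs were not: Eef2, the translocation factor, stood at 0.11, Pabpc1, which binds poly(A) tails, at 0.20, and Eef1g at 0.02. Scaling to total reads shifts all ratios by -0.055, more than the size of the Eef1g ratio. No full list of such mRNAs was counted, so these examples give no direction for the class. In the same list Eif3h (-0.23), Eif3e (-0.21) and Eif4b (-0.08) were also lower, and Eif3f (0.06) was not. The long scaffold genes Eif3a (0.59) and Eif4g1 (0.56) were higher.

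Among ribosomal proteins whose names the symbol rule does not take, Rack1 was at 50786, 47979 and 43355 normalized counts (-0.23) and Fau at 11406, 11587 and 10250 (-0.15). Of 77 tested mitochondrial ribosomal protein genes, which serve the ribosome of the mitochondrion, 58 were below 0, beside 48.9% of all tested genes and 59.7% of other genes with coding lengths in the range of the members. Their median was -0.09, and Mrpl24 stood at -0.33. After the coding trend this median was -0.04.

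Factors that assemble the ribosome were mostly higher on stiff. Of 50, 37 were above 0 in stiff against soft, against 51.1% of all tested genes, with a median of 0.16. At 0.25 or more stood 14, a share close to the 23.7% of tested genes, and none stood at -0.25 or less, where 15.2% of tested genes did. Dhx37, a helicase of the small subunit processome, was at 322, 447 and 667 normalized counts, a ratio of 1.05, and the nucleolar phosphoprotein gene Nolc1 at 465, 669 and 925, a ratio of 0.99. Ncl, which encodes nucleolin, was at 0.53, while the abundant Npm1 was at -0.04. After the coding trend the median of the list was 0.10.

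Of 28 tested genes that control ribosome synthesis, 20 were above 0, against 51.1% of all tested genes, with a median of 0.15. The list mixes genes that promote ribosome synthesis with genes that restrain it, such as Tsc2 (0.52) and Maf1 (-0.15). At 0.25 or more stood 8, beside 23.7% of tested genes, and at -0.25 or less 2, beside 15.2%. Larp1, the protein that binds terminal oligopyrimidine tracts, was at 1036, 1419 and 2265 normalized counts, a ratio of 1.13 (1.02 to 1.24). Myc was at 1144, 1572 and 1839 (0.68), Mtor at 543, 766 and 850 (0.64), and Polr1a, the largest subunit of RNA polymerase I, at 897, 1208 and 1445 (0.69). Taf1d was the lowest of the list at -0.36, and Polr1c, a subunit shared with RNA polymerase III, stood at -0.26. After the coding trend the median of the list was 0.06.

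**Figure D5:**
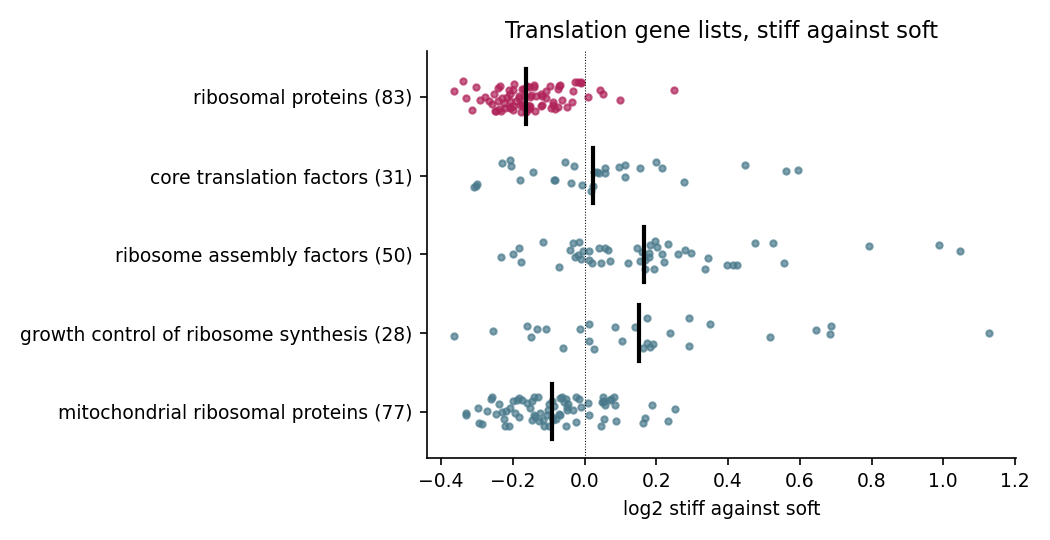
Log2 ratio of stiff against soft (x axis) for tested genes in the ribosomal protein set and 4 other lists (y axis, number of genes in brackets); points are genes, spread at random in height, and black bars are medians. The ribosomal proteins lie closest together, at a median of -0.16, while assembly factors and growth control genes lie mostly above 0.

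Other lists also differed between the libraries. Of 12 cell division and DNA replication genes 10 were below 0 in stiff against soft, beside 48.9% of all tested genes, with a median of -0.25. At -0.25 or less stood 6, beside 15.2% of tested genes. Birc5 was lowest at -0.40. Mki67 (0.19) and Top2a (0.07) were above 0, both with counting intervals that included 0. From soft to intermediate, where most ribosomal protein genes were lower, 6 of the 12 were above 0 and 6 below, with a median of -0.0019. For macrophage genes the stiff to soft median was 1.25, and the medians of the single steps were 0.43 and 0.78. Fibroblast genes had a median of 0.25, which turned to -0.08 after the coding trend. Of these 8 genes 6 were above 0, with Col1a1 at 0.95, and Dcn and Lum were below, at -0.44 and -0.36. In bulk RNA, fewer cells of one type and less RNA per cell cannot be told apart. The part of cell composition and cell division in the members' values was not tested.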

How the data were processed

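Bulk RNA of 3 libraries, 1 for each stiffness level, was read from 1 deposited table, since the 3 deposited files held the same values. The values are a signal, gene counts that the authors divided by a size factor per library. The submitters' processing notes name bcl2fastq 2.20.0, STAR 2.7.9a, featureCounts, Subread 2.0.1, DESeq2 1.34.0 and GRCm39, without role or order. The annotation version, the strand setting and the treatment of reads with several matches are not given in the sources used here. Libraries were made with a stranded mRNA kit, per the labels' protocols.

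Dividing a column by its smallest positive value gave whole reads for 100% of its genes (within 0.01 reads). One read is worth 1.03 normalized counts on soft, 0.943 on intermediate and 1.03 on stiff. A count-based test was not made because each level has 1 library, and no p-value is given. Log2 ratios carry a pseudocount of 1 and understate the change of low genes. Genes averaging 50 or more normalized counts entered, and 0.25 in size was the fold threshold. Intervals are exact 95% Clopper-Pearson intervals and cover counting error only, as amplified reads are not independent molecules.

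The members and the gene lists were chosen with earlier results of these data known. Named members are the 5 highest and 5 lowest of each comparison that averaged 100 or more, the 3 highest and lowest per coding kilobase, those with a listed role or paralog pair, and those under the minimum mean. Genes named from the other lists, beyond their most abundant, highest and lowest, were chosen after their values were seen. Some single genes are not reported here. Loci and coding sequences come from GENCODE vM39 (GRCm39), matched by symbol, and start windows from RefSeq (GRCm38.p6), where 65 members matched. The trend used a robust local linear fit over 300 neighbours. Alternatives were other pseudocounts, minimum means, thresholds, scalings and trends. The computation was tested on simulated data. The work used scipy 1.17.1, pandas 2.3.3 and matplotlib 3.10.9 under Python 3.11.15.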

Additional observations from a re-analysis of the deposited data

How the results depend on the processing

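The members' median stayed below 0 in each comparison under every alternative run. For stiff against soft it was -0.22, -0.24 and -0.22 with scaling to total reads, to total reads without member and mitochondrial genes, and to the upper quartile; for intermediate against soft -0.087, -0.10 and -0.10; for stiff against intermediate -0.13, -0.14 and -0.12. These scalings shifted all ratios alike, by -0.073 to -0.019. Subtracting the canonical length and GC trend gave medians of -0.045, -0.0092 and -0.049, and the coding trend, chosen after seeing the data, -0.083, -0.021 and -0.064. Members at -0.25 or less in stiff against soft were 30, 34 and 30 under the scalings, where 20.7%, 22.7% and 20.9% of all genes were, so the share relative to all genes depends on the scaling. They were 0 with the canonical trend, beside 15.0% of all genes, 1 with the coding trend (1 at 0.25 or more), beside 14.6% (18.1%), 6 without overlapped genes, paralogs and copies, beside 15.2%, 61 at a threshold of 0.1 (2 higher), beside 33.5% (37.8%), and 0 at 0.5, beside 3.77%. In intermediate against soft 1 lower and 2 higher were found at a minimum mean of 10 (9.17% and 16.5% of all genes), 3 and 2 with no minimum (8.36% and 10.3%), and 11 and 1 at a threshold of 0.1 (19.6% and 30.7%); 47 members were below 0 with the canonical trend, as were 50.8% of all genes. In stiff against intermediate the lower count was 8, 2 and 9 at minimum means of 10, 200 and none, beside 15.9%, 9.88% and 10.4% of all genes, 2 with the canonical trend (1 higher), beside 12.4% (13.4%) of all genes, 1 with the coding trend, beside 12.3%, 1 without overlapped genes, paralogs and copies, beside 12.5%, 41 at 0.1 (2 higher), beside 30.1% (33.0%), and 0 at 0.5, beside 3.42%. Minimum means of 10 and none take in genes of few reads. Members moving by at least 0.1 one way in both steps were 18, 26 and 32 under the scalings, all downward, where 9.34%, 10.7% and 10.5% of all genes moved downward so. They were 0 with the canonical trend and 1, upward, with the coding trend, where 6.62% and 6.77% of all genes moved downward and 9.77% and 9.69% upward. They were 47 at 0.05 in each step, 46 of them downward, beside 14.0% of all genes downward, and 0 at 0.25. With the canonical trend 33 fell by any amount in both steps, beside 26.0% of all genes. The share of reads was 7.01%, 6.59% and 6.05% without mitochondrially encoded genes in the denominator and 6.94%, 6.53% and 5.997% with the -ps loci added. In 6 of 11 lists the median changed sign in stiff against soft. Core translation factors stood at -0.031, -0.048 and -0.033 and small nucleolar RNA hosts at -0.024, -0.041 and -0.026 under the scalings, and the -ps loci at 0.021 with the canonical trend. The other 3, with medians of at least 0.25 in size, were mural genes at -0.048 with no minimum mean and -0.018 with the coding trend, fibroblast genes at -0.085 and mitochondrially encoded genes at 0.055 with the coding trend. Beyond what a setting itself takes out, the cause was not tested. Of 61 ratios of named members none that had reached 0.25 in size changed sign, but for only 7 did every scaling and trend give a value inside the counting interval. Depth limits the low copies: Rpl39l, Rpl6l, Rps3a2 and Rps3a3 have intervals across 0, while 1 library per level leaves the spread between cultures unknown for all members. No paired analysis was possible because each level has 1 library and the labels give no replicate numbers.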

Other observations

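Several spliced hosts of small nucleolar RNAs begin with a terminal oligopyrimidine tract like the ribosomal protein mRNAs. Of 11 tested hosts 6 were above 0 in stiff against soft, beside 51.1% of all tested genes, and 5 below. Their median was 0.03, the value of the protein-coding host Cct6a. Rc3h2, also protein-coding, stood at 0.15, and Gas5, the most abundant other host, at -0.08. Snhg3, Snhg8 and Snhg6 stood at -0.36, -0.35 and -0.29, and Snhg12 at 0.29, so the hosts had no common direction in that comparison. With scaling to total reads this median was -0.02. From soft to intermediate 8 of the 11 were below 0, with a median of -0.16, and from intermediate to stiff 8 were above 0, with a median of 0.09. Ribosomal RNA genes were not analysed here, as the libraries were made with an mRNA kit.

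The remaining marker lists are given as values. Mural genes summed to 2432 (soft), 3365 (intermediate) and 3221 (stiff) normalized counts, with a stiff to soft median of 0.36 over 5 tested genes, which turned to -0.05 with no minimum mean and to -0.02 with the coding trend subtracted. Skeletal muscle genes summed to 176, 311 and 640, of which Acta1 alone gave 168, 297 and 622, and each of the other 6 was below 10 normalized counts. Basophil and mast cell genes summed to 1844, 1532 and 1501, nearly all from Mcpt8 (1134, 760 and 742) and Gata2 (710, 769 and 757), while Cpa3, Fcer1a and Ms4a2 had no reads. Mitochondrially encoded genes took 1.28%, 1.16% and 1.10% of the reads, with a stiff to soft median of -0.26 over 10 tested genes, which turned to 0.06 with the coding trend subtracted.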
